A study of Mus musculus with 6 samples.

Results

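The VEGF family was examined in endothelial cells sorted from mouse mammary tumours. It was taken as 2 receptor genes, Kdr and Flt1, and 4 ligand genes, Vegfa, Vegfb, Vegfc and Pgf. These 6 genes were chosen by name and matched to the names in the authors' deposited table, out of 49315 gene IDs in the count files and 26071 genes in that table. All 6 were found, and all 6 passed the filter on low counts that left 23989 genes. The cells came from 4T1 tumours, grown from a murine breast cancer line injected into the inguinal mammary fat pad. The hosts were Balb/c females, aged 8 weeks when the cells were injected. The tumours grew for 2 weeks, and the mice were then aged 10 weeks. Every mouse had received 1E12 gold nanoparticles by tail vein 1 hour before harvest, 50 nm in diameter and carrying 5K mPEG and the dye Cy5. Cells depleted of CD45 and selected for CD31 were split by FACS into a nanoparticle-positive fraction (NP+) and a nanoparticle-negative one (NP-). There were 3 tumours (MET-106, MET-107, MET-108) and each gave 1 library per fraction, so both groups come from injected mice and neither is an untreated control. Values of single libraries are listed in that order of tumours.

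VEGF ligands are secreted dimers that bind receptor tyrosine kinases on endothelial cells. KDR (VEGFR2), activated mainly by VEGF-A, carries most of the signal for endothelial growth, migration and permeability. FLT1 (VEGFR1) binds VEGF-A, VEGF-B and PlGF, the product of Pgf, with high affinity but weak kinase output, and a secreted form of it traps ligand. VEGF-C acts mainly on FLT4 (VEGFR3), the receptor of lymphatic and sprouting endothelium. In tumours VEGF-A is typically supplied by carcinoma cells and macrophages, while endothelial cells make PlGF.

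Total gene counts ran from 41830256 to 58089600 in the NP+ libraries and from 20856410 to 44694267 in the NP- libraries. Levels are CPM, counts scaled to a common library size by the counts of tested genes and TMM factors, and n = 3 per group throughout. The 12 endothelial markers examined summed to 12229 to 14300 CPM in NP+ and to 7956 to 11190 CPM in NP-. Pecam1 (CD31) averaged 3291 ± 500 CPM in NP+, against 2353 ± 449 CPM in NP- (SD), and Ptprc (CD45) 4.48 ± 0.997 CPM in NP+, against 13.9 ± 10.4 CPM in NP-. Marker sums of other cell types varied more among the NP- libraries. The 6 fibroblast markers summed to 13.4 to 56.1 CPM in NP+, against 3769, 128 and 56.5 CPM in NP-. The 7 epithelial and carcinoma markers summed to 7.85 to 11.7 CPM in NP+, against 566, 30.1 and 14.6 CPM in NP-. The 6 lymphatic markers summed to 199 to 256 CPM in NP+, against 185, 1433 and 534 CPM in NP-. The 7 pericyte and smooth muscle markers summed to 90.9 to 110.1 CPM in NP+ and to 129 to 765 CPM in NP-, and the 8 macrophage markers to 18.9 to 27 and 42.8 to 127 CPM. The 5 neutrophil markers summed to 4.20 to 5.59 CPM in NP+ and 4.91 to 98.9 CPM in NP-, the 5 platelet markers to 8.60 to 9.25 and 5.21 to 15.9 CPM, and the 5 adipocyte markers to 1131 to 1556 and 1789 to 3267 CPM. The 4 markers with the smallest p by edgeR were Cdh1, Pdgfra, Epcam and Col1a1, whose log2 fold changes of NP+ over NP- ran from -6.34 to -3.52 (adjusted p = 0.0600 to 0.115). No marker was at 0 in all libraries. The part of these markers in the results below was not tested. Levels are those of bulk fractions, in which fewer cells of a type and less RNA per cell cannot be told apart.

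Per length, Pgf and the receptors were far above the other ligands. In CPM per kilobase of exon, NP+ libraries averaged 175 ± 31.0 for Pgf, 142 ± 31.8 for Kdr and 92.1 ± 13.4 for Flt1 (SD, n = 3). Vegfc averaged 11.5 ± 1.5, Vegfb 1.30 ± 0.278 and Vegfa 1.27 ± 0.431 there. The order was the same in NP-, with 130.0 ± 116 for Pgf, 91.6 ± 18.2 for Kdr, 39.2 ± 17.2 for Flt1, 11.2 ± 0.758 for Vegfc, 1.56 ± 0.528 for Vegfb and 1.21 ± 0.641 for Vegfa. In both groups the ranges of Pgf and Kdr overlapped, as did those of Vegfb and Vegfa, while the other neighbours in the order were separate. This order depends on the length of all annotated exons, 13504 bases for Flt1, 9030 for Kdr and 1582 for Pgf. The length of the transcripts expressed was not measured. In CPM not divided by length, Kdr and Flt1 overlapped in both groups, and Pgf in NP+ (238 to 333) was below both. Among the tested genes Pgf stood at percentile 98.5 in NP+ and 98.4 in NP-, Kdr at 98.1 and 97.7, and Flt1 at 97.0 and 94.0. Vegfc stood at percentile 80.5 and 82.9, Vegfb at 52.9 and 49.8, and Vegfa at 52.7 and 44.0.

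**Figure D1:**
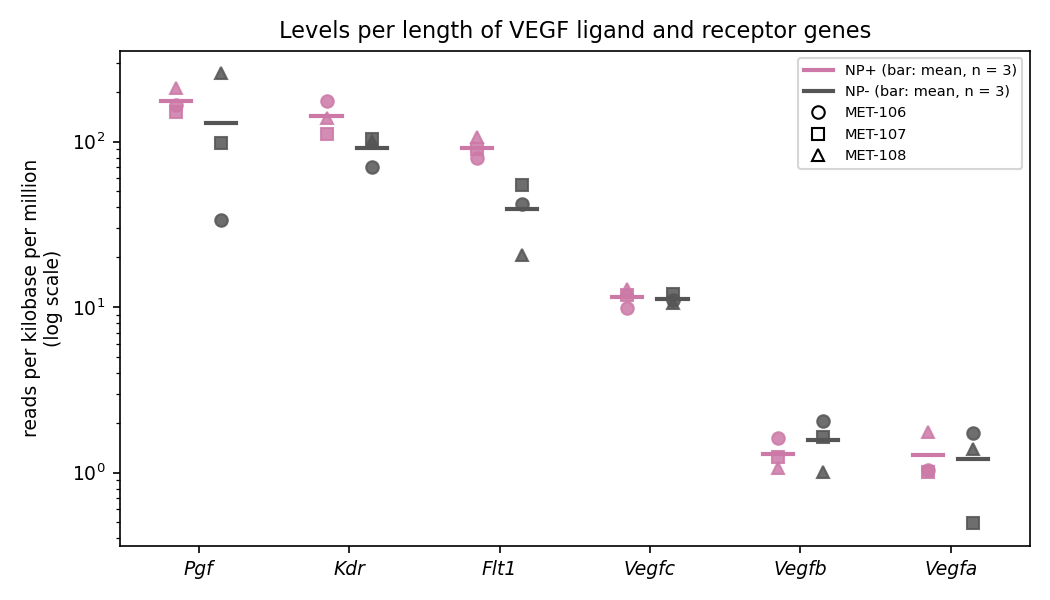
CPM per kilobase of exon on a log axis for the 6 genes; each point is 1 library, its shape gives the tumour, and the bar is the mean of 3 libraries. Pgf, Kdr and Flt1 lie above Vegfc in all 6 libraries, and Vegfb and Vegfa lie lowest.

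Kdr encodes the main signalling receptor of VEGF-A. It stood at 1578, 1005 and 1259 CPM in the NP+ libraries, and at 638, 936 and 908 CPM in the NP- libraries. The lowest NP+ library was above the highest NP- library, and NP+ was above NP- in 3 of 3 tumours. The within-tumour ratio was 2.47 in MET-106 but 1.07 in MET-107 and 1.39 in MET-108. The mean was 1281 ± 287 CPM in NP+ and 827 ± 165 CPM in NP-, a ratio of 1.55. The log2 fold change of NP+ over NP- was 0.63 (SE 0.23, adjusted p = 0.169 over all genes by edgeR's quasi-likelihood test).

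Flt1 encodes the high-affinity decoy-like receptor. It stood at 1080, 1212 and 1438 CPM in the NP+ libraries, and at 569, 739 and 280 CPM in the NP- libraries. The lowest NP+ library was above the highest NP- library, and the lowest NP- value was that of MET-108, the tumour with the highest NP+ value. Within tumours NP+ was 1.90, 1.64 and 5.14 times as high as NP-. The mean was 1243 ± 181 CPM in NP+ and 529 ± 232 CPM in NP-, a ratio of 2.35. The log2 fold change was 1.23 (SE 0.33, adjusted p = 0.126 by edgeR's quasi-likelihood test), and 0.95 (SE 0.21, adjusted p = 0.0675) without the NP- library of MET-108.

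**Figure D2:**
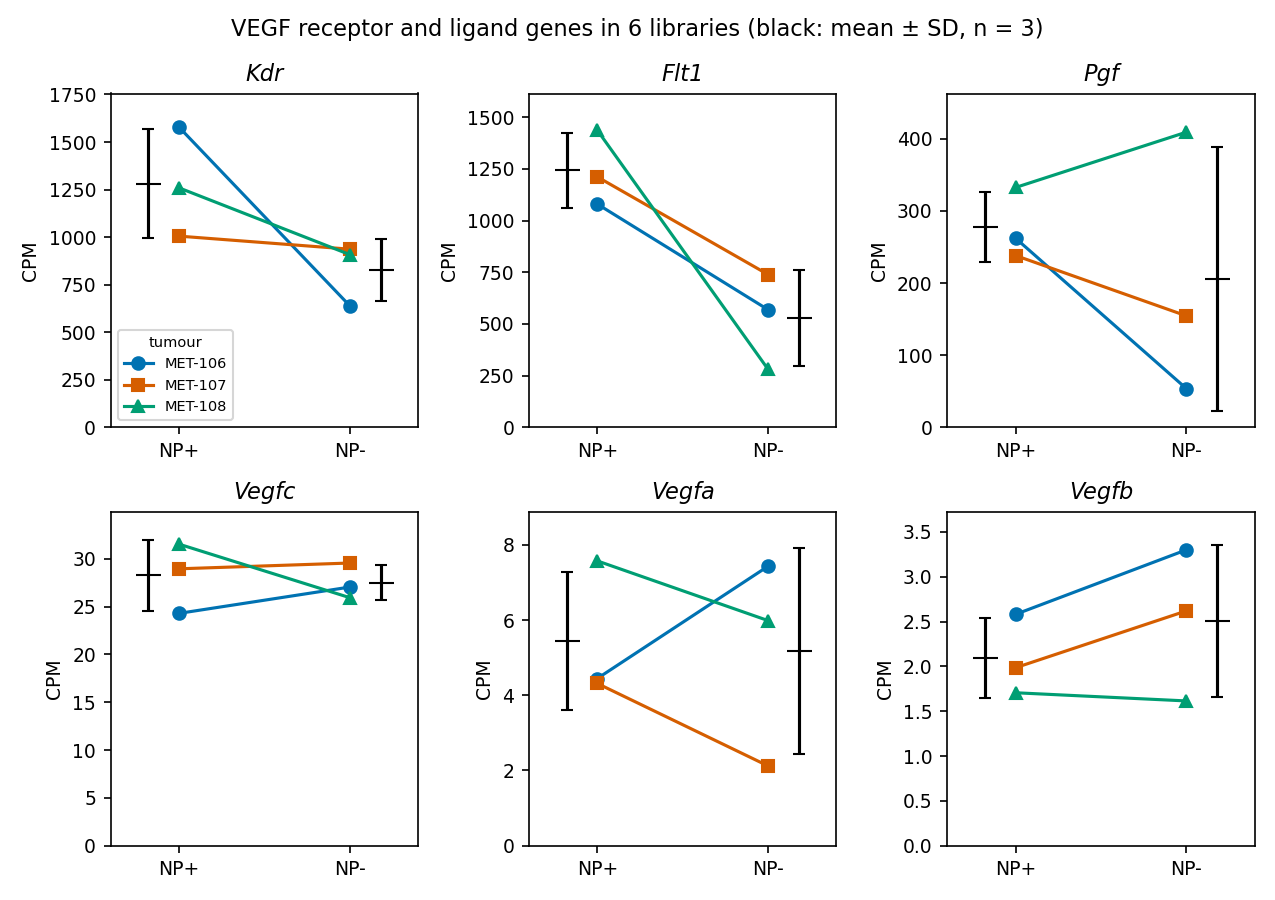
CPM of each gene in NP+ (left) and NP- (right) libraries; lines join the fractions of 1 tumour, and black marks give the mean ± SD of 3 libraries. For Kdr and Flt1 all NP+ libraries lie above all NP- libraries, while the NP+ and NP- ranges of each of the 4 ligands overlap.

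Of the 6 genes, 0 passed an adjusted p of 0.05 in the edgeR fit, in which 0.0292% of all genes tested passed, 0.0125% higher and 0.0167% lower. By edgeR at an unadjusted p under 0.05, 2 of 6 were higher in NP+ (Flt1 and Kdr) and 0 lower, where 8.01% of all genes were higher and 15.4% lower. Kdr and Flt1 had groups that did not overlap, as did 13.3% of all genes in that direction. The median log2 fold change of the 6 genes was 0.25, and that of all tested genes was -0.29. Against that median the log2 difference was 1.52 for Flt1 and 0.92 for Kdr. The median depended on the filter. With at least 5 CPM in 3 libraries it was -0.02, where Flt1 stood at 0.96 and Kdr at 0.34. With no low-count filter it was -0.69, where Flt1 stood at 1.42 and Kdr at 0.85.

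Other tests differed on the receptors. DESeq2 on the same counts called both higher, Flt1 at 1.35 (SE 0.37, adjusted p = 0.00663) and Kdr at 0.75 (SE 0.28, adjusted p = 0.0472), where 3.53% of genes with an adjusted p were called higher and 11.4% lower. In the authors' deposited table, once its sign is turned to NP+ over NP-, Flt1 stood at 1.31 (adjusted p = 0.00423) and Kdr at 0.72 (adjusted p = 0.0452), where 3.71% of genes were called higher and 9.45% lower. That table and DESeq2 called 2 of 6 members, and neither called a ligand. The table rests on the same counts and the submitters' processing notes name DESeq2, so these are not independent tests. With the tumour as a block edgeR gave 1.32 (SE 0.34, adjusted p = 0.113) for Flt1 and 0.62 (SE 0.26, adjusted p = 0.217) for Kdr, where 0.00834% of genes were called higher and 0.0542% lower. With no low-count filter edgeR called Flt1 (1.42, adjusted p = 0.0109) and not Kdr, where 1.19% were higher and 1.55% lower. The filter of at least 5 CPM in 3 libraries called no member, where 0.169% were higher and 0.815% lower, and limma-voom none, where 0.05% were higher and 0.025% lower.

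**Figure D3:**
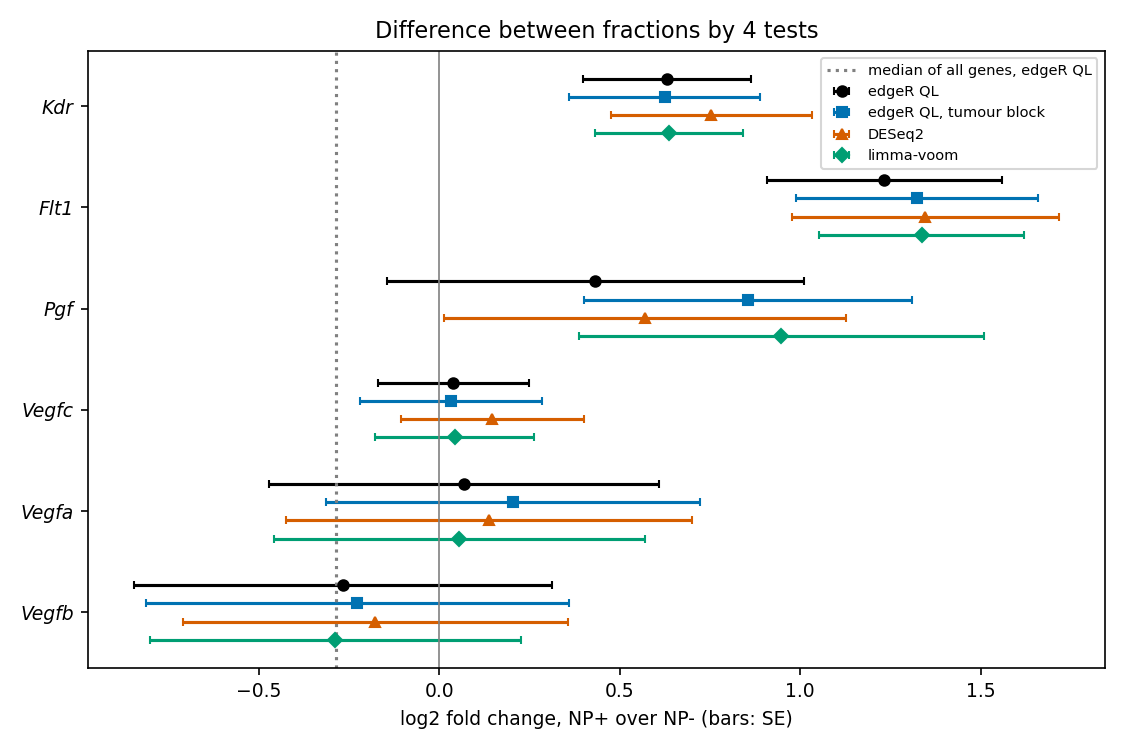
Log2 fold change of NP+ over NP- with its SE for the 6 genes by edgeR's quasi-likelihood test without and with the tumour block, DESeq2 and limma-voom; the dotted line is the median of all genes tested by edgeR without the block, at -0.29. Flt1 and Kdr lie right of 0 by all 4 tests, and the SE bars of Vegfa, Vegfb and Vegfc cross 0.

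The gene counts of Flt1 pool a membrane-bound and a secreted form. GENCODE M21 lists 2 protein-coding transcripts for Flt1, the longer with 1333 codons and the shorter with 688, against 1 of 1345 codons for Kdr. The coding sequences of both Flt1 forms run together for 1972 bases. They are shown from 30 bases before they part, with the letters after that point in capitals. For the shorter form these run to the stop codon, 95 bases further, and the longer form is shown over the same length.
Flt1, shorter form: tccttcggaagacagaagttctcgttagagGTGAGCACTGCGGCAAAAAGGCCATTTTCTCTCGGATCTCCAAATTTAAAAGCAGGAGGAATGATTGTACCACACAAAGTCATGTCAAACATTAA
Flt1, longer form: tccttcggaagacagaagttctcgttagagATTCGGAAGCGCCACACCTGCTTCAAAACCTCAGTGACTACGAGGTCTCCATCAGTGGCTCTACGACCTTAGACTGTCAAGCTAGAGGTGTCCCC
The share of each form in the counts above was not measured here.

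Around their start sites, the receptor genes and Pgf were compared in RefSeq promoter windows on GRCm38.p6, since these 3 genes had the highest levels per length. The windows run from 250 bases before the RefSeq start to 50 after it, on the gene's strand (minus for all 3). They lie at chr5:75978406-75978705 for Kdr, chr5:147725962-147726261 for Flt1 and chr12:85177264-85177563 for Pgf, of which RefSeq lists 2 windows and 1 is shown. The motifs were chosen after the letters were seen. Capitals mark matches to these motifs on either strand. Motifs were the GC box GGGCGG, the ETS-type hexamer AGGAAG, the cAMP response element TGACGTCA, the TATA box TATAAA and the hypoxia response core ACGTG. The shorter ETS core GGAA was not searched or marked.
Kdr: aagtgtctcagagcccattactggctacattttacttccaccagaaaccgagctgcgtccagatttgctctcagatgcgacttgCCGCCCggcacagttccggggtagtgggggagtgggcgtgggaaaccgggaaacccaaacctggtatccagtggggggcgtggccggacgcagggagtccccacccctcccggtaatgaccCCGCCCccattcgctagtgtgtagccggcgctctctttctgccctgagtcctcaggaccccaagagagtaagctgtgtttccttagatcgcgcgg
Flt1: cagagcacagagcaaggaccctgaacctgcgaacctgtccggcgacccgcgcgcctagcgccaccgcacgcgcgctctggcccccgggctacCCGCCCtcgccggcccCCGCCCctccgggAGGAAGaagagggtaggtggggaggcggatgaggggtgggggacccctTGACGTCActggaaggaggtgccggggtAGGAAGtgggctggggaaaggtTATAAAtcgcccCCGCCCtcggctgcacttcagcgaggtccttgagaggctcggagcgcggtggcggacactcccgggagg
Pgf: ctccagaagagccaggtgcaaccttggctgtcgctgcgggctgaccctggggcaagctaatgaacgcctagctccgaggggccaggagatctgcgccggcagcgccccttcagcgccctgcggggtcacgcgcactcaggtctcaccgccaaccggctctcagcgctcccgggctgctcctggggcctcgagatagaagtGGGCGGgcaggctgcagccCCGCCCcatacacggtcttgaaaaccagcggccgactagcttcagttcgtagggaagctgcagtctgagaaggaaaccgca
The Flt1 window held 3 GC boxes, ETS-type hexamers starting at -129 and -53, a cAMP response element at -81 and a TATA box at -31. Positions are counted from the RefSeq start. The Kdr and Pgf windows held 2 GC boxes each and no match to the other motifs searched. Both do hold the shorter GGAA, or its reverse complement TTCC, unmarked, so lacking the hexamer is not lacking an ETS core. No matches overlapped in these windows. Of 32851 such windows over all genes, 35.7% held a GC box, 35.4% the ETS-type hexamer and 1.79% the cAMP response element. The TATA box was in 13.6% and the hypoxia core in 19.6%.

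The balance of the receptors differed by tumour. The ratio of Flt1 to Kdr in reads per kilobase was 0.458, 0.806 and 0.764 in the NP+ libraries, and 0.596, 0.528 and 0.206 in the NP- libraries. It was higher in NP+ in MET-107 and MET-108 and lower in MET-106. The mean log2 ratio was -0.61 ± 0.45 in NP+ and -1.32 ± 0.84 in NP-, a difference of 0.71 (exact permutation test, two-sided, p = 0.3; 3 against 3 libraries can give no p under 0.1). Exact sign flips within tumours, which use the pairing, gave p = 0.5, and 3 pairs can give no p under 0.25. Without the NP- library of MET-108 the difference was 0.23 (exact permutation p = 0.6). Relative to Pecam1, a ratio added after the values were seen, Kdr ran from 0.246 to 0.285 in NP+ and from 0.222 to 0.280 in NP-. Flt1 relative to Pecam1 ran from 0.131 to 0.204 in NP+ and was 0.136, 0.148 and 0.0457 in the NP- libraries. The Kdr ratio overlapped between groups, and the low Flt1 ratio was that of 1 library.

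**Figure D4:**
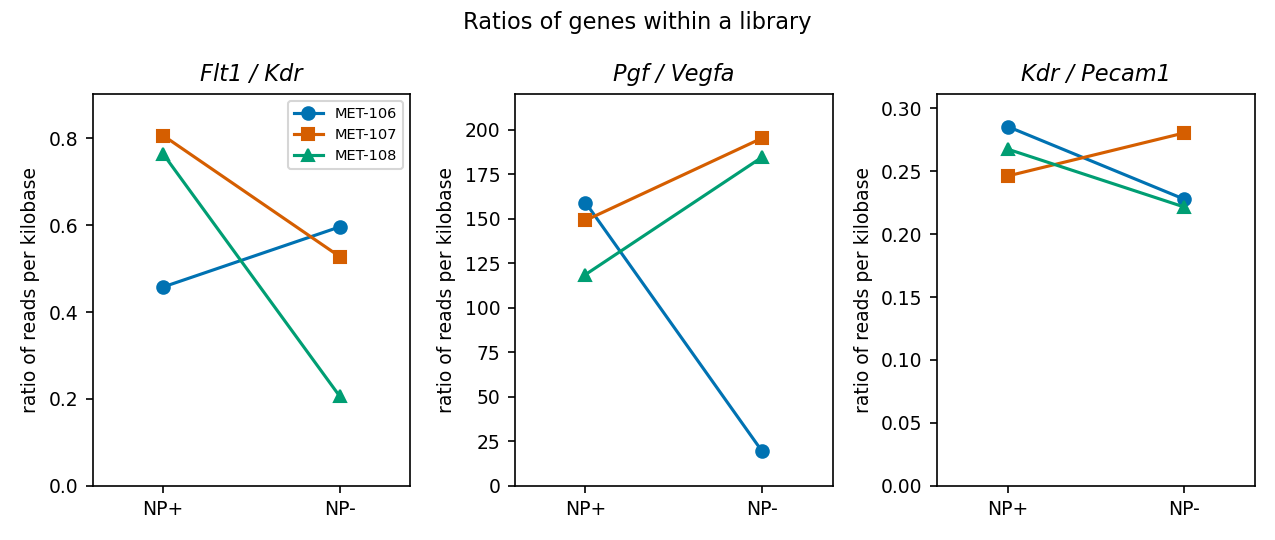
Ratios of reads per kilobase within a library for Flt1 over Kdr, Pgf over Vegfa and Kdr over Pecam1; lines join NP+ (left) and NP- (right) of 1 tumour. In the first 2 panels 1 NP- library stands low, at 0.206 in MET-108 for Flt1 over Kdr and at 19.5 in MET-106 for Pgf over Vegfa.

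Pgf encodes PlGF, a ligand of FLT1 that does not bind KDR. It stood at 262, 238 and 333 CPM in the NP+ libraries, and at 53.5, 154 and 409 CPM in the NP- libraries. NP+ libraries were within 1.4 times of each other, while NP- libraries spanned 7.65 times and enclosed the NP+ range. The within-tumour ratio was 4.90 in MET-106, 1.54 in MET-107 and 0.812 in MET-108, so the direction was not shared. The mean was 278 ± 49.0 CPM in NP+ and 206 ± 183 CPM in NP- (log2 fold change 0.43, SE 0.58, adjusted p = 0.652 by edgeR's quasi-likelihood test). With the tumour as a block edgeR gave 0.86 (SE 0.45, adjusted p = 0.298). Without the NP- library of MET-106, in which fibroblast and epithelial markers were high, the log2 fold change was 0.03 (SE 0.38), and without that of MET-108 it was 1.45 (SE 0.40, adjusted p = 0.101). Whether these markers bear on the Pgf counts was not tested.

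Vegfc encodes the ligand of FLT4 and had the smallest spread of the 6 genes. It stood at 24.3, 29.0 and 31.5 CPM in NP+ and at 27.1, 29.6 and 25.9 CPM in NP-. The ranges overlapped, with NP+ above NP- in 1 of 3 tumours. The mean was 28.3 ± 3.67 CPM in NP+ and 27.5 ± 1.86 CPM in NP- (log2 fold change 0.04, SE 0.21, adjusted p = 0.918 by edgeR's quasi-likelihood test).

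Vegfa, the main ligand of KDR, was detected at low levels in both fractions. Its counts were 162, 237 and 302 reads in the NP+ libraries, and 356, 51 and 178 reads in the NP- libraries. In CPM these were 4.45, 4.32 and 7.58 in NP+ and 7.44, 2.12 and 5.99 in NP-. The groups overlapped, and NP+ was higher in MET-107 and MET-108 and lower in MET-106. The mean was 5.45 ± 1.85 CPM in NP+ and 5.18 ± 2.75 CPM in NP- (log2 fold change 0.07, SE 0.54, adjusted p = 0.944 by edgeR's quasi-likelihood test). The direction turned with upper-quartile scaling (-0.17) and total-count scaling (-0.21). The NP- library of MET-106, with the highest NP- value, also held the most epithelial and macrophage markers, and without it the log2 fold change was 0.47 (SE 0.58). Whether these markers bear on the Vegfa counts was not tested.

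Vegfb, a ligand of FLT1, was as low. It had 94, 109 and 68 reads in NP+ and 158, 63 and 48 reads in NP-, which gives 2.58, 1.99 and 1.71 CPM for NP+, against 3.30, 2.62 and 1.61 CPM for NP-. The groups overlapped, and the mean was 2.09 ± 0.447 CPM in NP+ and 2.51 ± 0.848 CPM in NP- (log2 fold change -0.27, SE 0.58, adjusted p = 0.788 by edgeR's quasi-likelihood test).

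For the scarce ligands a background level can be set from 1106 olfactory receptor genes, which endothelium is not known to use. The reads per kilobase in these genes, not scaled for library depth, were 1.17 to 5.37 in NP+ and 4.06, 10.1 and 9.90 in NP-. Total gene counts were lowest in the NP- libraries of MET-107 and MET-108. The multiples below thus depend on this density as well as on the level of the gene. Vegfa stood at 10.3 to 32.3 times the count that this density gives for its length in NP+. In NP- it stood at 20.5 times in MET-106, 1.17 times in MET-107 and 4.20 times in MET-108. Vegfb stood at 12.7 to 50.1 times in NP+ and 3.02 to 24.3 times in NP-. Vegfc stood at no less than 28.7 times in any library, and Pgf, Kdr and Flt1 at no less than 62.2 times. The Vegfa count of the NP- library of MET-107 was thus close to this density, which is a mean over genes with no spread given.

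Of the summed ligand level per kilobase, Pgf made up 91.5% to 93.0% in NP+ and 69.5%, 87.3% and 95.2% in the NP- libraries. Vegfa made up 0.582% to 0.783% in NP+ and 0.443% to 3.57% in NP-. The ratio of Pgf to Vegfa was 159, 149 and 119 in NP+ and 19.5, 195 and 185 in NP-. Its mean log2 value was 7.14 ± 0.22 in NP+ and 6.47 ± 1.90 in NP-, a difference of 0.67 (exact permutation test, two-sided, p = 1.0). It reversed to -0.43 without the NP- library of MET-106.

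The genes whose log2 CPM over the 6 libraries ran most like each member were picked by rank among 8990 protein-coding genes with a mean of at least 10 CPM. The correlations are descriptions over 6 libraries that share 3 tumours and 1 scaling. For Kdr they were Plxnb2 (Pearson r = 0.997), Castor2 (0.994) and Ptpn14 (0.992), and 126 genes were above 0.95. For Flt1 they were Esyt2 (0.998), Ero1l (0.998) and Stk11 (0.996), with 186 genes above 0.95. Ero1l, an endoplasmic reticulum oxidase gene, stood at 128 ± 16.4 CPM in NP+, against 48.2 ± 22.6 CPM in NP-. For Pgf they were Ppp1r18 (0.993), Ak4 (0.992) and Aar2 (0.991), for Vegfa Cnrip1 (0.984), Tgfa (0.979) and Gatc (0.977), and for Vegfb Kif15 (0.985), Rad50 (0.983) and Nsg1 (0.975). Vegfc had no gene above 0.95, and its closest were Ccdc32 (0.929), Exoc3l2 (0.915) and Gmfg (0.913). Among the members, Pearson r over the 6 libraries was 0.58 between Flt1 and Kdr, 0.69 between Pgf and Kdr, 0.08 between Pgf and Flt1 and -0.89 between Pgf and Vegfb.

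Around the members, 42 genes of VEGF signalling were examined, all of them tested. They were listed with earlier results of these data known, so the counts here and by role below describe them and test no pathway. By edgeR 0 were called in either direction, and at an unadjusted p under 0.05 13 were higher and 2 lower in NP+, beside 8.01% and 15.4% of all genes. The groups did not overlap for 16 higher genes and 1 lower gene, beside 13.3% and 15.6% of all genes, and 20 were higher and 6 lower in 3 of 3 tumours, beside 20% and 30.2%. The median log2 fold change was 0.35, and -0.29 over all genes. By DESeq2 8 were called higher and 0 lower, beside 3.53% and 11.4% of all genes.

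Among the co-receptors, Nrp1, which presents VEGF-A to KDR, stood at 690, 549 and 563 CPM in the NP+ libraries, and at 433, 514 and 483 CPM in NP- (log2 fold change 0.33, SE 0.17, adjusted p = 0.272 by edgeR's quasi-likelihood test). Its lowest NP+ value was above its highest NP- value. Nrp2, a co-receptor for VEGF-C, averaged 205 ± 39.7 CPM in NP+ and 175 ± 79.3 CPM in NP-. Flt4, the VEGF-C receptor gene, stood at 203, 201 and 191 CPM in NP+, within a narrow range, and at 70.2, 328 and 199 CPM in NP-. The highest Flt4 value was that of the NP- library of MET-107, which also had the highest sum of lymphatic markers. Vegfd, a VEGF-C relative, stood at 0.452 to 0.714 CPM in NP+ and 0.370 to 4.49 CPM in NP-. Its NP- counts were 215, 30 and 11 reads. For its length the density of olfactory receptor genes gives 9.77, 24.4 and 23.8 reads in these libraries. The NP- count was thus close to this density in MET-107 and under it in MET-108. In NP+ Vegfd stood at 2.32 to 9.23 times this density.

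Of 20 genes that relay the signal, 6 were higher and 1 lower at an unadjusted p under 0.05, beside 8.01% and 15.4% of all genes. The lower one was Bmx, a Tec-family kinase gene, at 9.44, 7.12 and 9.28 CPM in NP+, against 18.6, 9.65 and 18.7 CPM in NP- (log2 fold change -0.86, adjusted p = 0.182 by edgeR). Plcg1, the phospholipase that binds activated KDR, stood at 116 ± 4.75 CPM in NP+, against 66.8 ± 17.7 CPM in NP- (log2 fold change 0.80, SE 0.21, adjusted p = 0.127 by edgeR's quasi-likelihood test). Ptk2, the focal adhesion kinase gene, averaged 148 ± 10.9 CPM in NP+, against 95.8 ± 11.6 CPM in NP- (adjusted p = 0.127 by edgeR). Of 9 genes that restrain or internalise the receptor, 4 were higher and 0 lower at that threshold, with the same shares of all genes beside them. Cdh5 encodes VE-cadherin, which complexes with KDR at junctions, and stood at 569, 651 and 551 CPM in NP+, against 311, 494 and 502 CPM in NP- (adjusted p = 0.253 by edgeR).

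Of 9 genes that VEGF-A is known to induce, 3 were higher and 1 lower at that threshold, beside 8.01% and 15.4% of all genes. The lower one was Nr4a1, an orphan nuclear receptor gene, at 186, 89.3 and 151 CPM in NP+, against 229.6, 177 and 352 CPM in NP- (log2 fold change -0.83, SE 0.32, adjusted p = 0.179 by edgeR), lower in 3 of 3 tumours with overlapping groups. Apln, which encodes apelin, stood at 524, 543 and 710 CPM in the NP+ libraries, and at 153, 69.2 and 55.1 CPM in NP-. Esm1, which encodes endocan, a binding partner of VEGF-A, stood at 152, 162 and 193 CPM in NP+ and at 44.8, 62.1 and 68.3 CPM in NP-. Both were separate between groups, with log2 fold changes of 2.68 (SE 0.38) and 1.53 (SE 0.21) and an adjusted p of 0.0600 each by edgeR's quasi-likelihood test.

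Of 22 genes of the hypoxia-inducible factor (HIF) pathway, which induces Vegfa and Flt1 in low oxygen, 0 were called by edgeR and 7 were higher and 0 lower at an unadjusted p under 0.05, beside 0.0292% of all genes called and 8.01% and 15.4% higher and lower at that p. The median log2 fold change was 0.41, and -0.29 over all genes. This list was also chosen with earlier results of these data known, so its counts are descriptions. In 3 of 3 tumours 12 genes were higher and 0 lower, beside 20% and 30.2% of all genes. By DESeq2 4 were called higher, beside 3.53% of all genes. Pdk1, a kinase that turns down mitochondrial pyruvate use, stood at 65.8 ± 9.21 CPM in NP+, against 25.9 ± 7.44 CPM in NP- (log2 fold change 1.34, SE 0.25, adjusted p = 0.0887 by edgeR's quasi-likelihood test). The glycolytic gene Pgk1 averaged 340 ± 17.2 CPM in NP+, against 198 ± 53.2 CPM in NP- (adjusted p = 0.128 by edgeR). Ldha, the lactate dehydrogenase gene, averaged 2161 ± 95.0 CPM in NP+, against 1548 ± 97.0 CPM in NP- (adjusted p = 0.152 by edgeR). Hif1a, which encodes the oxygen-regulated subunit, stood at 1223, 839 and 1120 CPM in NP+ and at 590, 506 and 182 CPM in NP- (log2 fold change 1.32, SE 0.39, adjusted p = 0.139). Its lowest value, in the NP- library of MET-108, was in the same library as that of Flt1.

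**Figure D5:**
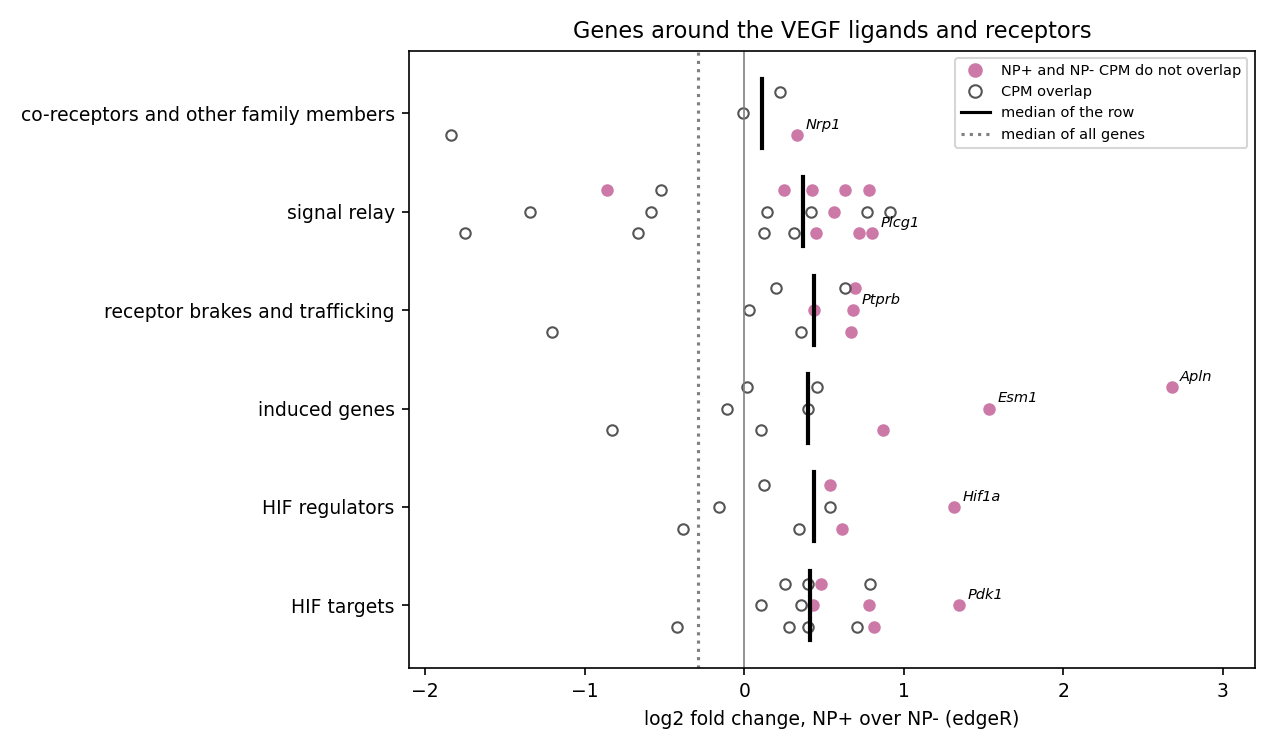
Log2 fold change of NP+ over NP- by edgeR for 42 VEGF signalling and 22 HIF pathway genes, 1 point per gene, grouped by role; filled points have groups that do not overlap, short black lines give the median of a row and the dotted line that of all genes, -0.29. Apln and Esm1 lie farthest right, at 2.68 and 1.53, and 0 points passed the adjusted threshold.

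On GRCm38, Kdr (ENSMUSG00000062960) lies on chromosome 5 from 75932827 to 75978458 and Flt1 (ENSMUSG00000029648) on chromosome 5 from 147561604 to 147726011. Vegfa (ENSMUSG00000023951) lies on chromosome 17 from 46016993 to 46032369, Vegfb (ENSMUSG00000024962) on chromosome 19 from 6982473 to 6987651 and Pgf (ENSMUSG00000004791) on chromosome 12 from 85166639 to 85177296. These 5 are on the minus strand, and Vegfc (ENSMUSG00000031520) is on the plus strand of chromosome 8 from 54077606 to 54187096. All 6 are annotated as protein-coding, and counts cover the exons as a whole. In the count files no other listed gene overlaps any of them.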

How the data were processed

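Per the labels' protocols, 6 SMART-Seq v4 libraries, a kit without strand marks, were read as 2 x 150 bp. The deposited files hold whole-number counts per gene. The submitters' processing notes name STAR 2.5.2b, Trimmomatic 0.036, DESeq2, and featureCounts (Subread 1.5.2), with GRCm38 (mm10); the strand setting, multi-mapping rule and annotation release are not given in the sources used. The authors' deposited table gives a normalized signal per library (counts over a size factor), log2 fold changes of NP- over NP+ (99.9% of signs match the group means), and p-values. Multiplied back by size factors recovered from their steps, 100% of its 156426 normalized values came out as whole reads within 0.01 reads, and 100% of these equalled the counts.

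Groups were compared by edgeR's quasi-likelihood test, unblocked (R 4.3.3, edgeR 4.0.16, limma 3.58.1, DESeq2 1.42.0), with TMM scaling, filterByExpr by group (minimum count 10) and Benjamini-Hochberg adjustment over 23989 genes at 0.05. SE is the log2 fold change over the square root of F. Levels per kilobase, ratios of genes and ligand shares use the length of all annotated exons in the count files. Comparisons between genes depend on that length. Ratios used a prior of 0.5 reads and exact permutation tests. Per the labels, NP+ and NP- libraries of 1 number come from 1 tumour and are therefore paired. Their deviations from the group means correlated at 0.28, 0.21 and 0.02, and blocking by tumour is an alternative. P values rest on the spread between 3 tumours, and intervals of counts cover counting error only. Alternatives were DESeq2, limma-voom, 3 other scalings, 2 other filters and each library left out, plus, added after seeing the data, recovered reads and each tumour left out. Symbols came from the reference table for 48970 of 49315 IDs. All 6 members matched a RefSeq promoter window; protein sequences were not used here. The members, the lists and the named genes (members, the 4 smallest p per list, Nrp1, Nrp2, Pecam1, Cdh5, Ptprc and the 3 most correlated genes per member) were chosen with earlier results of these data known; Flt4, Vegfd, Bmx and Nr4a1 were named outside that rule after their values were seen.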

Additional observations from a re-analysis of the deposited data

How the results depend on the processing

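Of the 6 members, Flt1, Kdr and Pgf kept their direction under all 18 alternatives, with log2 fold changes of 0.90 to 1.58, 0.32 to 0.87 and 0.03 to 1.45. Calls appeared for Flt1 with DESeq2 (1.35) and with no low-count filter (1.42), and for Kdr with DESeq2 (0.75). The count of members called higher was thus 2 with DESeq2 and 1 with no low-count filter, against 0, and 0 were called lower in any fit. Vegfa turned to -0.17 with upper-quartile scaling, -0.21 with total counts and -0.18 with at least 5 CPM in 3 libraries, and Vegfc to -0.20, -0.26 and -0.23. Vegfb had no value under that filter. With 1 library or tumour left out, log2 fold changes ran from -0.29 to 0.74 for Vegfa, -0.48 to 0.040 for Vegfb, and -0.0045 to 0.32 for Vegfc, and the Pgf to Vegfa difference from -0.43 to 1.24. The median of all genes was -0.29 with TMM, -0.23 with RLE, -0.53 by upper quartile and -0.59 by total counts. With the tumour block it was -0.15, with at least 5 CPM in 3 libraries -0.02 and with no low-count filter -0.69. The -0.29 set beside the members and both lists thus depends on the genes kept. VEGF pathway genes called higher numbered 8 with DESeq2, 2 with limma-voom, 4 with no low-count filter, 2 with at least 5 CPM, and 0 to 4 with a library or tumour left out. HIF genes called higher numbered 4 with DESeq2, 3 with no low-count filter and 0 to 2 with a library or tumour left out. Without the NP- library of MET-106 the 2 lists had 4 and 2, where 968 of all 27794 genes tested were called higher. Without that of MET-108 they had 4 and 1, where 113 of 26382 were. Over all genes, 3 were higher and 4 lower in the main fit, and 3 and 4 with recovered reads. The counts were 976 and 3147 with DESeq2, 525 and 686 with no low-count filter, 18 and 87 with at least 5 CPM, 12 higher with limma-voom, 18 lower by upper quartile and 9 lower by total counts. With a library or tumour left out they ran from 0 to 968 and from 0 to 1352, both highest without the NP- library of MET-106, and were 113 and 177 without that of MET-108. Adding tumour as a replicate block gave 2 higher and 13 lower, and changed no call among the members or the lists. The cause of these shifts was not tested. Vegfa and Vegfb rest on 48 to 356 reads per library.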
